A study of Mus musculus with 36 samples.

Results

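The 7 genes described here encode the receptors through which a monocyte receives the osteoclast signals, with their membrane adaptors and a receptor of the finished cell: Tnfrsf11a (RANK), Csf1r, Oscar, Trem2, Tyrobp (DAP12), Fcer1g (FcRγ) and Calcr. They were taken by gene symbol, as genes of this signalling system, and are 7 of the 38942 genes in the deposited expression table, and 7 of the 38873 that passed the filter on low values. The study sorted mouse bone-marrow monocytes by surface Ly6C into Ly6Chi, Ly6Cint and Ly6C- fractions (the last is written Ly6Cneg here, after the sample titles) and cultured them. Groups of Irf8 conditional knockout (cKO) cells were set beside wild-type (WT) cells, and osteoclasts (OC; day 4, M-CSF at 20 ng/ml with RANKL at 40 ng/ml) beside bone-marrow macrophages (BMM; day 0, M-CSF), which makes 12 groups of genotype, stage and fraction. There were 3 libraries in 10 groups and 2 libraries in WT Ly6Cneg OC and WT Ly6Cneg BMM. The labels used here name no Cre driver, strain or age, and do not say that the libraries of a group came from different animals, so each p-value reflects how far these libraries spread, and that spread may be only technical.

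Osteoclasts form when monocytes fuse under the combined action of M-CSF and RANKL. M-CSF acts through the receptor tyrosine kinase encoded by Csf1r, which keeps precursors alive and dividing, and RANKL acts through RANK, which recruits TRAF adaptors. A further, costimulatory signal comes from receptors with no signalling tail of their own: OSCAR pairs with FcRγ, TREM2 pairs with DAP12, and both adaptors carry ITAM motifs that recruit the kinase Syk and lead to calcium signals and NFATc1. Calcr encodes the calcitonin receptor, which appears late and is a textbook mark of the mature osteoclast.

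Oscar and Calcr varied together more closely than any other pair of the 7 genes, and Tnfrsf11a was the next closest to each, so the 250 bases before their annotated starts are shown (RefSeq, GRCm38.p6, each 5′ to 3′ on the strand of its gene). Capitals mark matches on either strand to GGAAA, the core of NFAT sites, and to GAGGAA, the core of PU.1 sites. The Oscar window is chr7:3616158-3616407, minus strand. The Calcr windows are chr6:3763624-3763873 (start 1) and chr6:3764714-3764963 (start 2), minus strand. The Tnfrsf11a window is chr1:105780473-105780722, plus strand.
Oscar: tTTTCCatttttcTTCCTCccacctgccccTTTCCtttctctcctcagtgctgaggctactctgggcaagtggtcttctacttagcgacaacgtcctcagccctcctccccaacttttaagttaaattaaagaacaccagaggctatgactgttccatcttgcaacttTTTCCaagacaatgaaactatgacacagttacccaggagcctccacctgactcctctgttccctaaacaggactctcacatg
Calcr, start 1: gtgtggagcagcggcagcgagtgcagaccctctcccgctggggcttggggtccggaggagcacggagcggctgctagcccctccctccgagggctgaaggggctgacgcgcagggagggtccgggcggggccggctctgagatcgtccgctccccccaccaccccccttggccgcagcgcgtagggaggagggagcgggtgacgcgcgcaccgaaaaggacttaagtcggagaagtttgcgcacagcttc
Calcr, start 2: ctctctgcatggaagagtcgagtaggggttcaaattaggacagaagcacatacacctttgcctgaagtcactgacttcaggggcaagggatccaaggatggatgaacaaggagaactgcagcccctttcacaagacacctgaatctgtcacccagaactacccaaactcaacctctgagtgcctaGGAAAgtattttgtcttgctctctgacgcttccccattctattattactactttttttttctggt
Tnfrsf11a: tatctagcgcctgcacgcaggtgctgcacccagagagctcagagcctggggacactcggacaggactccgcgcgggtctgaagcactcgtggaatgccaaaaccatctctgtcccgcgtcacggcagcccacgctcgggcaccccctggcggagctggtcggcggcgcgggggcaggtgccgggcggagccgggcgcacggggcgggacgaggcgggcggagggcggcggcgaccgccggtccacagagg
The Oscar window held 3 matches to GGAAA, which begin 249, 220 and 82 bases before the start, and 1 match to GAGGAA, 237 bases before it. Start 2 of Calcr held 1 match to GGAAA, 65 bases before it, and start 1 of Calcr and the Tnfrsf11a window held none of the motifs searched. The GC content was 47.2% for Oscar, 46.0% for Calcr start 2, 70.8% for Calcr start 1 and 73.6% for Tnfrsf11a. Of 32851 windows of the same length in the RefSeq table, 55.6% held GGAAA and 23.3% held GAGGAA, so neither match is rare. No window of the 5 genes that have one (6 windows, Trem2 and Fcer1g included) held the E-box CACGTG, the TATA box TATAAA or the ETS-IRF composite element, which 6.02%, 12.4% and 2.3% of all windows hold. The AP-1 site TGANTCA, present in 6.75% of windows, was found among the members in Trem2 alone. Overlapping matches were counted separately, and none of these matches shows that a factor binds.

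Deposited values, on a log2 scale, have a minimum of 3.90 at 0 reads and compress differences of low genes: 1 log2 unit of reads adds 0.455 at 10 reads, 0.847 at 1000 and 1.019 at 10000. Each fold is therefore given from read numbers recovered from the steps of the scale and divided by relative depth (normalised reads). Libraries held 20080000 to 54060000 reads by that recovery, 8.8% to 18% of them extrapolated above the highest step that could be numbered. Irf8 was higher in the libraries labelled cKO than in those labelled WT in every fraction and stage (group means 11.84 to 14.25 in cKO and 10.10 to 13.55 in WT, with no overlap within a pair), which goes against a loss of the transcript; a gene total cannot show whether an exon was deleted. Names of genotypes below are those of the labels, and if the labels were exchanged every direction between cKO and WT would turn. Ddx3y, a Y-linked gene, had group means of 10.53 to 10.77 in cKO and 5.23 to 6.12 in WT, and Xist, transcribed in females, had 12.24 to 13.66 in cKO and 14.01 to 15.15 in WT. Libraries labelled cKO thus held both transcripts, and the mix of sexes and the genotype cannot be told apart in any difference between cKO and WT. Ly6c2, which encodes a Ly6C antigen, was lowest in the BMM libraries labelled Ly6Chi in WT, with means of 9.89 in Ly6Chi, 13.54 in Ly6Cint and 12.26 in Ly6Cneg. In cKO BMM the means were 13.29, 14.46 and 11.67 in the same order, so the Ly6C names stand for the sort and not for the Ly6c2 level of these libraries. The summed normalised reads of 14 osteoclast markers, led by Mmp9, Ctsk and Acp5, were 170151 to 1778173 in OC libraries and 40406 to 90395 in BMM libraries, with every OC group above every BMM group. All 14 neutrophil markers were lower in OC than in BMM in Ly6Chi and Ly6Cint of both genotypes (medians -6.06 and -5.44 in cKO and -4.47 and -5.51 in WT). Their summed reads were 3201 to 5656 in OC and 955187 to 1881394 in BMM for cKO Ly6Chi, and 35324 to 45031 in OC and 1719621 to 1951693 in BMM for cKO Ly6Cint. In WT they were 2381 to 2867 in OC and 108823 to 133810 in BMM for Ly6Chi, and 2961 to 3429 in OC and 651267 to 720281 in BMM for Ly6Cint. In Ly6Cneg, 7 of the 14 neutrophil markers were lower and 2 higher in OC in cKO, and 11 lower and 0 higher in WT. The Ly6Cneg medians were -0.78 in cKO and -1.8 in WT. Neutrophil sums were 35260 to 47322 in OC and 54924 to 115886 in BMM for cKO Ly6Cneg. For WT Ly6Cneg they were 6588 to 8032 in OC and 64488 to 74043 in BMM. Of 14 monocyte and macrophage markers, 11 and 10 were lower in OC in cKO Ly6Chi and Ly6Cint and 13 and 13 in WT. In Ly6Cneg, 7 of them were higher and 4 lower in cKO, and 7 and 3 in WT. The part of these shifts in the changes of the 7 genes between OC and BMM was not tested. In bulk RNA, fewer cells of a type and less RNA per cell cannot be told apart.

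**Figure D1:**
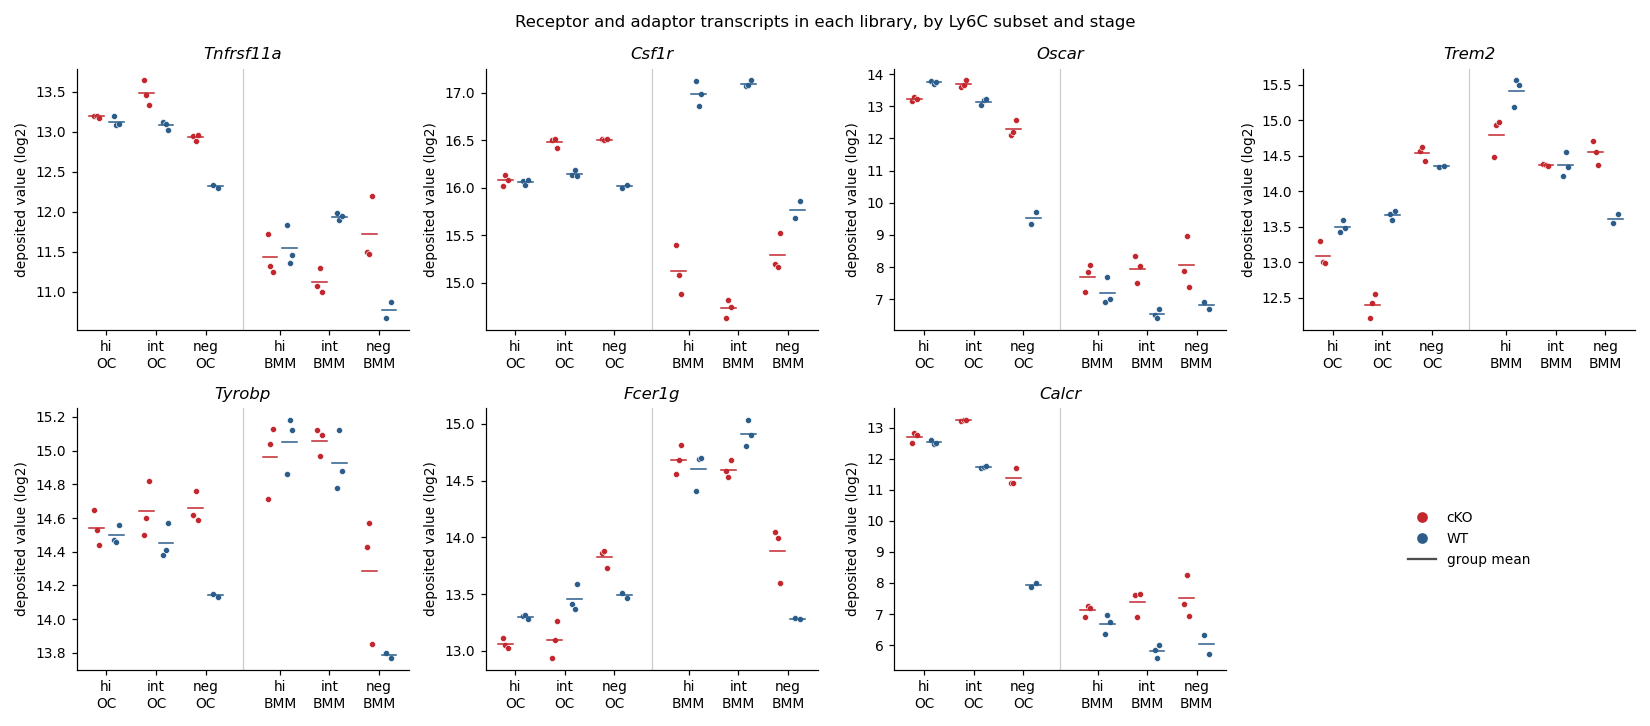
Deposited expression values (log2 scale, vertical axis) of the 7 genes in each library, with OC groups left of BMM groups and cKO left of WT within each fraction; points are libraries and bars are group means. Oscar and Calcr are at 7.86 or higher in all OC libraries and spread between 5.59 and 8.95 in BMM libraries, while Csf1r, Tyrobp, Fcer1g and Trem2 stay above 12 in every library.

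The 7 genes fell into 3 kinds of response to osteoclast culture. Tnfrsf11a, Oscar and Calcr rose in all 6 pairs of OC and BMM groups. Trem2, Fcer1g and Tyrobp fell in the Ly6Chi and Ly6Cint fractions of both genotypes. In the Ly6Cneg fraction these 3 were higher or not called, with Trem2 higher in WT and Tyrobp higher in cKO. Csf1r rose in all 3 cKO fractions and fell in WT Ly6Chi and Ly6Cint. With limma, a difference was called at a Benjamini-Hochberg adjusted p under 0.05 over all genes tested in that comparison, and 37 of the 42 tests of a member between OC and BMM were called, 23 higher and 14 lower. By comparison, 7 of 7 members were called in cKO Ly6Chi (41.8% of all genes tested), 7 of 7 in cKO Ly6Cint (48.7% of all genes) and 5 of 7 in cKO Ly6Cneg (42.6%). In WT the counts were 7 of 7 in Ly6Chi (34.1% of all genes), 7 of 7 in Ly6Cint (28.4%) and 4 of 7 in Ly6Cneg (12.2%), the pair with 2 libraries on each side. The fit shares 1 estimate of spread over all 34 libraries. An exact permutation test of a single gene could give no p below 0.1 with 3 libraries against 3. That floor is higher with 2 against 2, as in WT Ly6Cneg here. It is 0.2 with 3 against 2, as between genotypes in Ly6Cneg.

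**Figure D2:**
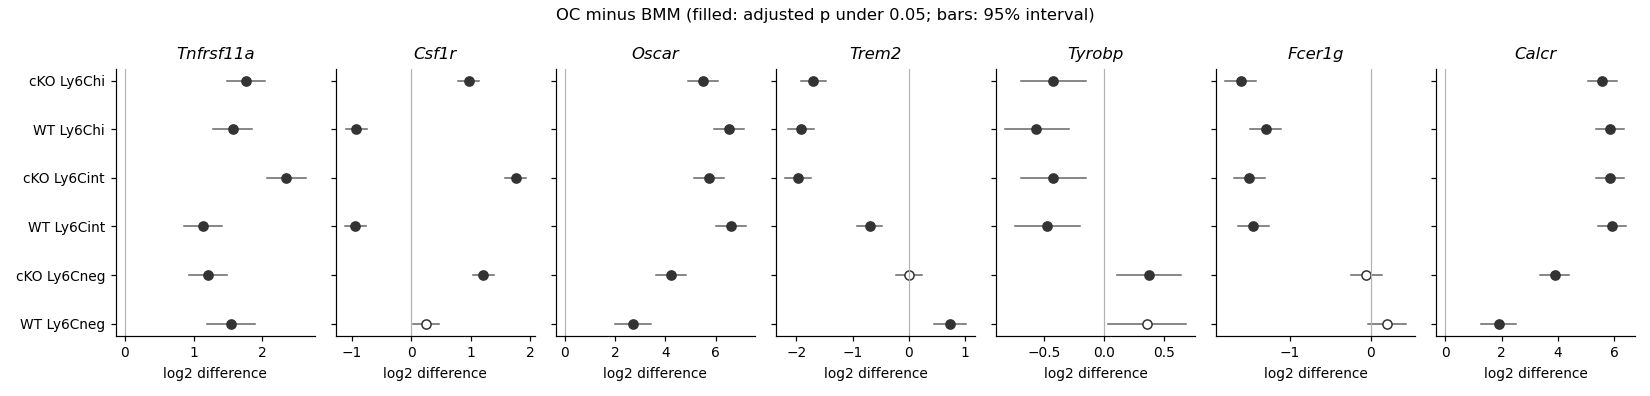
Difference between OC and BMM (log2 scale, horizontal axis with its own range for each gene) in each genotype and fraction, with 95% intervals; filled points have an adjusted p under 0.05. Oscar and Calcr have the highest differences, 1.90 to 6.61, and Csf1r is positive in the 3 cKO rows and negative in WT Ly6Chi and Ly6Cint.

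Tnfrsf11a, the receptor for RANKL, is on chromosome 1 (ENSMUSG00000026321, 105780718 to 105847981, plus strand, GRCm38). In the Ly6Chi fraction its values were 13.20, 13.20 and 13.17 in cKO OC, against 11.72, 11.32 and 11.25 in cKO BMM. WT Ly6Chi gave 13.19, 13.08 and 13.10 in OC, against 11.83, 11.36 and 11.46 in BMM. OC and BMM libraries did not overlap in either genotype, and the rises were 3.41-fold in cKO and 2.98-fold in WT by normalised reads (log2 difference 1.76 ± 0.14, SE, adjusted p = 4.53e-12, and 1.57 ± 0.14, adjusted p = 5.26e-11, limma). In Ly6Cint the cKO libraries had 13.64, 13.46 and 13.33 in OC, against 11.07, 11.30 and 11 in BMM. The WT Ly6Cint libraries had 13.12, 13.10 and 13.02 in OC, against 11.98, 11.89 and 11.94 in BMM. The cKO rise (5.24-fold, 2.35 ± 0.14, adjusted p = 3.63e-15) exceeded that of WT (2.22-fold, 1.14 ± 0.14, adjusted p = 3.97e-08), with a difference between the genotypes of 1.21 ± 0.19 (interaction, adjusted p = 1.12e-05). Ly6Cneg libraries had 12.94, 12.88 and 12.96 in cKO OC, against 11.49, 11.47 and 12.19 in cKO BMM. In WT Ly6Cneg they had 12.33 and 12.30 in OC, against 10.67 and 10.87 in BMM. Groups were again apart, with rises of 2.27-fold in cKO (1.21 ± 0.14, adjusted p = 2.01e-08) and 3.08-fold in WT (1.54 ± 0.17, adjusted p = 2.27e-08).

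Between genotypes, Tnfrsf11a moved in opposite directions in 2 of the BMM fractions. It was lower in cKO Ly6Cint BMM than in WT (-0.81 ± 0.14, adjusted p = 1.58e-05) and higher in cKO Ly6Cneg BMM (0.94 ± 0.15, adjusted p = 3.03e-05). In OC it was higher in cKO Ly6Cneg (0.61 ± 0.15, adjusted p = 0.00376), while in Ly6Cint the cKO libraries lay above all WT libraries without passing the threshold (0.39 ± 0.14, adjusted p = 0.0521). With limma, that Ly6Cint difference was called under library weights (0.40), under a stricter filter (0.39) and without cKO OC replicate 3 (0.47). It was also called with limma-voom on the recovered reads (0.39, adjusted p = 0.00242), and not in the remaining alternatives. In Ly6Chi the differences were 0.07 in OC (adjusted p = 0.943) and -0.12 in BMM (adjusted p = 0.567). The order of its 12 group means ran from WT Ly6Cneg BMM (10.77 ± 0.14, SD, n = 2) to cKO Ly6Cint OC (13.47 ± 0.16, n = 3), a 6.85-fold range in normalised reads. All 6 OC means stood above all 6 BMM means, and the neighbouring means WT Ly6Cint OC, WT Ly6Chi OC and cKO Ly6Chi OC (13.08, 13.12 and 13.19) overlapped in their libraries.

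Csf1r, the M-CSF receptor, is on chromosome 18 (ENSMUSG00000024621, 61100598 to 61132149, plus strand). It shares 873 of its 5774 exon bases with Hmgxb3 on the opposite strand, and whether the counting used strand is not given in the sources used here; per kilobase of exon, Hmgxb3 reached 53.5 to 132 normalised reads and Csf1r 4650 to 25400 in group means. Ly6Chi values were 16.02, 16.13 and 16.08 in cKO OC, against 15.40, 15.08 and 14.88 in cKO BMM. In WT Ly6Chi they were 16.07, 16.03 and 16.08 in OC, against 17.12, 16.86 and 16.99 in BMM. The OC libraries of the genotypes thus lay side by side, and the BMM libraries lay on opposite sides of them. In Ly6Cint the cKO libraries had 16.50, 16.51 and 16.42 in OC, against 14.63, 14.82 and 14.74 in BMM. The WT libraries had 16.13, 16.19 and 16.12 in OC, against 17.07, 17.08 and 17.13 in BMM. In cKO the gene rose 1.97-fold in Ly6Chi (0.96 ± 0.09, adjusted p = 7.66e-12) and 3.5-fold in Ly6Cint (1.75 ± 0.09, adjusted p = 1.6e-19). In WT it fell, to 0.508 of the BMM level in Ly6Chi (-0.93 ± 0.09, adjusted p = 1.46e-11) and to 0.503 in Ly6Cint (-0.95 ± 0.09, adjusted p = 8.86e-12). The difference between genotypes in this change was 1.89 ± 0.12 in Ly6Chi (interaction, adjusted p = 2.19e-15) and 2.69 ± 0.12 in Ly6Cint (adjusted p = 7.19e-20).

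In Ly6Cneg, Csf1r was 16.51, 16.50 and 16.51 in cKO OC, against 15.20, 15.17 and 15.52 in cKO BMM. In WT Ly6Cneg it was 16 and 16.03 in OC, against 15.68 and 15.86 in BMM. The cKO libraries rose 2.39-fold (1.21 ± 0.09, adjusted p = 1.98e-14), and the WT pair differed by 0.24 ± 0.11 and was not called (adjusted p = 0.164). The interaction was 0.97 ± 0.14 (adjusted p = 1.12e-06). Set between genotypes, Csf1r was lower in cKO BMM in every fraction, 3.83-fold in Ly6Chi (-1.87 ± 0.09, adjusted p = 4.04e-20), 5.46-fold in Ly6Cint (-2.37 ± 0.09, adjusted p = 3.48e-23) and 1.4-fold in Ly6Cneg (-0.47 ± 0.10, adjusted p = 0.000376). In OC it was higher in cKO Ly6Cint (0.33 ± 0.09, adjusted p = 0.00591) and Ly6Cneg (0.50 ± 0.10, adjusted p = 0.000143), and the Ly6Chi groups differed by 0.01 (adjusted p = 1.0). These OC differences depend on the scaling: under quantile normalization they were -0.02 in Ly6Cint and 0.14 in Ly6Cneg (adjusted p = 0.679), and neither was called; after a shift by the median of all genes the Ly6Cint value was 0.36 (adjusted p = 0.0723). WT Ly6Cint BMM had the highest of the 12 means (17.10 ± 0.03, n = 3) and cKO Ly6Cint BMM the lowest (14.73 ± 0.10, n = 3).

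Markers of several cell types moved with Csf1r in Ly6Chi and Ly6Cint BMM. The summed normalised reads of 14 monocyte and macrophage markers, Csf1r among them, were 521814 to 616999 in cKO Ly6Chi BMM and 978251 to 1033621 in WT, and in Ly6Cint 545512 to 567430 in cKO and 983562 to 1084449 in WT. Those of 14 neutrophil markers ran the other way, with the higher sums in cKO in both fractions as given above. Those of 10 dendritic cell markers were 2497 to 4045 in cKO Ly6Chi BMM and 8250 to 11094 in WT, and 2547 to 3103 in cKO Ly6Cint BMM and 23820 to 28892 in WT. In Ly6Cneg BMM the macrophage marker sums were 291382 to 337446 in cKO and 261535 to 276738 in WT. Lyz2 alone held 172000 to 223000 of these reads in cKO and 107000 to 109000 in WT. Of these 14 markers, 3 were higher and 7 lower in cKO, with a median of -0.3 beside 0.27 over all genes. Neutrophil marker sums overlapped there, at 54924 to 115886 in cKO and 64488 to 74043 in WT. Of those 14 markers, 5 were higher and 1 lower in cKO (median 0.35). Over all genes tested, 13.6% were higher and 9.42% lower in cKO. Dendritic cell marker sums were 4389 to 5413 in cKO and 8789 to 9088 in WT. The part of these markers in the Csf1r differences was not tested.

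Because a precursor must read both signals, the ratio of Csf1r to Tnfrsf11a reads within a library is also given, with no test. In BMM it was 12.5 to 13.5 in cKO Ly6Chi and 40.9 to 48.5 in WT Ly6Chi. In Ly6Cint BMM it was 11.5 to 13.6 in cKO and 35.6 to 38.1 in WT, and in Ly6Cneg BMM 9.9 to 13 in cKO and 33.1 to 33.9 in WT. All cKO BMM libraries were thus below all WT BMM libraries, in each fraction. In OC the ranges were close, at 7.08 to 7.7 in cKO and 7.4 to 7.94 in WT for Ly6Chi, 7.56 to 8.69 in cKO and 8.12 to 8.63 in WT for Ly6Cint, and 12 to 12.5 in cKO and 12.7 to 13.2 in WT for Ly6Cneg.

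**Figure D3:**
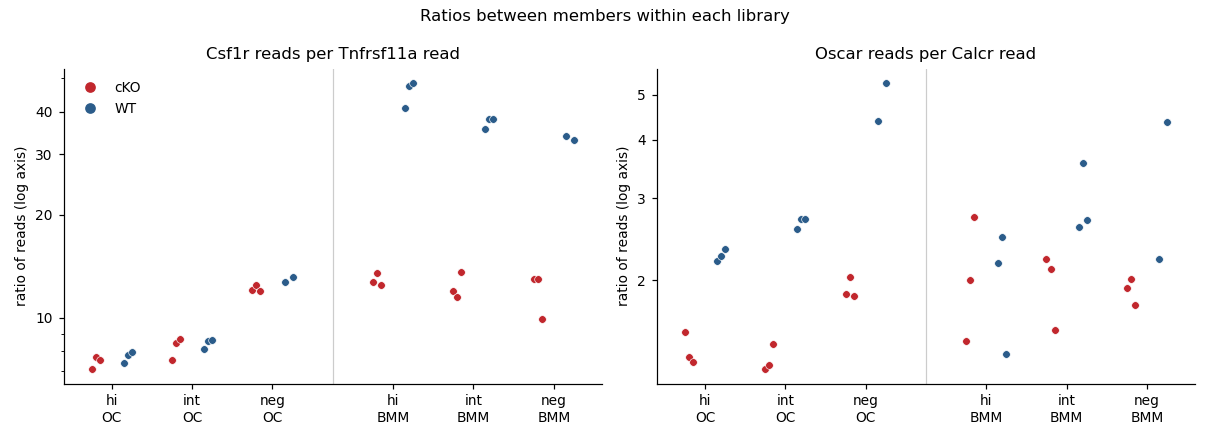
Ratio of normalised reads of Csf1r to Tnfrsf11a (left) and Oscar to Calcr (right) in each library (log axis), with OC left of BMM and cKO left of WT. The Csf1r to Tnfrsf11a ratio separates cKO BMM (9.9 to 13.6) from WT BMM (33.1 to 48.5) and lies between 7.08 and 13.2 in OC; the Oscar to Calcr ratio is lower in cKO than in WT in every OC fraction.

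Oscar, the collagen-binding costimulatory receptor that pairs with FcRγ, is on chromosome 7 (ENSMUSG00000054594, 3609813 to 3616157, minus strand), and it ranged 630-fold over the 12 groups. In normalised reads, cKO Ly6Chi libraries held 9139, 10005 and 9559 in OC, against 52.9, 114 and 143 in BMM. WT Ly6Chi libraries held 13945, 13090 and 13852 in OC, against 35.8, 95.9 and 40.0 in BMM. In Ly6Cint there were 12501, 12887 and 14243 in cKO OC, against 194, 74.5 and 141 in cKO BMM. OC and BMM were far apart in each of these sets, and the BMM libraries varied several-fold among themselves. WT Ly6Cint held 8485, 9349 and 9531 in OC, against 20.2, 18 and 26.7 in BMM. Ly6Cneg held 4416, 4738 and 6098 in cKO OC, against 117, 357 and 65.6 in cKO BMM. WT Ly6Cneg held 505 and 706 in OC, against 35.1 and 27.1 in BMM, so its OC libraries were the lowest of all OC libraries. The rises in cKO were 92.5-fold in Ly6Chi, 96.8-fold in Ly6Cint and 28.3-fold in Ly6Cneg, and on the deposited scale 5.51 ± 0.29, 5.74 ± 0.29 and 4.22 ± 0.29 (adjusted p = 5.58e-14, 1.89e-14 and 1.66e-11, limma). In WT they were 238-fold, 422-fold and 19.5-fold in the same order, or 6.53 ± 0.29, 6.61 ± 0.29 and 2.72 ± 0.35 (adjusted p = 1.65e-15, 1.45e-15 and 2.44e-06). Without cKO Ly6Cneg BMM replicate 2 the cKO Ly6Cneg rise was 55.8-fold, and without WT Ly6Chi BMM replicate 2 the WT Ly6Chi rise was 359-fold. The cKO library also had the highest osteoclast marker sum of the BMM libraries, 90395 reads.

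The genotypes differed in Oscar most in the Ly6Cneg OC, where cKO was 8.39-fold higher (2.76 ± 0.32, adjusted p = 3.53e-07). In Ly6Chi OC and Ly6Cint OC the differences of -0.52 (adjusted p = 0.397) and 0.54 (adjusted p = 0.296) were not called, and with limma-voom on the recovered reads, an alternative added after the data were seen, both were (-0.51, adjusted p = 0.00166, and 0.53, adjusted p = 0.000646). In BMM, Oscar was higher in cKO Ly6Cint (1.41 ± 0.29, adjusted p = 0.000319) and Ly6Cneg (1.26 ± 0.32, adjusted p = 0.00573), and Ly6Chi differed by 0.50 (adjusted p = 0.216). The Ly6Cneg BMM difference was 1.17 (adjusted p = 0.0696) without WT replicate 2 and 0.82, still called, without cKO replicate 2, whose Oscar was the highest of any BMM library. Within WT OC, Ly6Cneg was 22.5-fold lower than Ly6Chi (-4.21, adjusted p = 2.83e-10) and 15.1-fold lower than Ly6Cint (-3.62, adjusted p = 1.02e-08). In cKO OC the same differences were -0.93 (adjusted p = 0.0192) and -1.40; the one from Ly6Chi was -0.84 to -0.90, not called, without Ly6Chi replicate 2 or Ly6Cneg replicate 1 or 2.

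Calcr, on chromosome 6 (ENSMUSG00000023964, 3685680 to 3764714, minus strand), ranged 1280-fold over the groups, the widest range of the 7 genes. In normalised reads, Ly6Chi held 5909, 7301 and 7109 in cKO OC, against 35.7, 57.1 and 52.3 in cKO BMM. WT Ly6Chi held 6331, 5804 and 5911 in OC, against 16.5, 38.6 and 28.8 in BMM. In Ly6Cint there were 9660, 9728 and 9760 in cKO OC, against 87.4, 35.1 and 89.6 in cKO BMM. The calcitonin receptor was thus under 90 reads in these BMM libraries and above 5800 in these OC libraries. WT Ly6Cint held 3295, 3454 and 3518 in OC, against 7.76, 5.03 and 9.9 in BMM. Ly6Cneg held 2362, 2333 and 3297 in cKO OC, against 60.4, 177 and 37.0 in cKO BMM. WT Ly6Cneg held 115 and 133 in OC, against 15.8 and 6.2 in BMM. These WT Ly6Cneg OC libraries were below the highest cKO BMM library, and all other OC libraries held 2333 reads or more. The rises were 140-fold, 137-fold and 29.1-fold in cKO Ly6Chi, Ly6Cint and Ly6Cneg (5.58 ± 0.24, 5.85 ± 0.24 and 3.88 ± 0.24; adjusted p = 8.14e-16, 2.2e-16 and 2.13e-12). In WT they were 215-fold, 453-fold and 11.3-fold (5.85 ± 0.24, 5.92 ± 0.24 and 1.90 ± 0.30; adjusted p = 2.56e-16, 2.16e-16 and 3.54e-05). The cKO Ly6Cneg rise was 54.7-fold without BMM replicate 2, and the WT Ly6Cneg rise was 20-fold without BMM replicate 1.

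Calcr was higher in cKO than in WT in 2 of the OC fractions and 2 of the BMM fractions. In Ly6Cneg OC it was 21.5-fold higher (3.46 ± 0.27, adjusted p = 3.07e-10) and in Ly6Cint OC 2.84-fold higher (1.50 ± 0.24, adjusted p = 5.4e-05), while Ly6Chi OC differed by 0.17 (adjusted p = 0.864). In BMM it was higher in Ly6Cint (1.57 ± 0.24, adjusted p = 1.12e-05) and Ly6Cneg (1.48 ± 0.27, adjusted p = 0.000276), at read numbers under 180 (in Ly6Cneg 8.33-fold, 4.43-fold without cKO replicate 2 and 14.8-fold without WT replicate 1), and Ly6Chi differed by 0.44 (adjusted p = 0.205). In WT OC, Ly6Cneg was 48.4-fold below Ly6Chi (-4.62, adjusted p = 1.67e-12) and 27.6-fold below Ly6Cint (-3.82, adjusted p = 1.64e-10). The osteoclast marker list, which holds Oscar and Calcr, moved with these differences: its summed reads were 779353 to 942758 in cKO Ly6Cneg OC and 170151 to 182017 in WT, 1728152 to 1778173 in cKO Ly6Cint OC and 1073422 to 1156285 in WT, and 1345021 to 1476744 in cKO Ly6Chi OC and 1599760 to 1648637 in WT. Its part in the differences was not tested. Stromal and osteoblast markers also differed in Ly6Cneg OC, at 14624 to 20682 summed reads in cKO and 1065 to 1408 in WT, and their part was not tested.

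**Figure D4:**
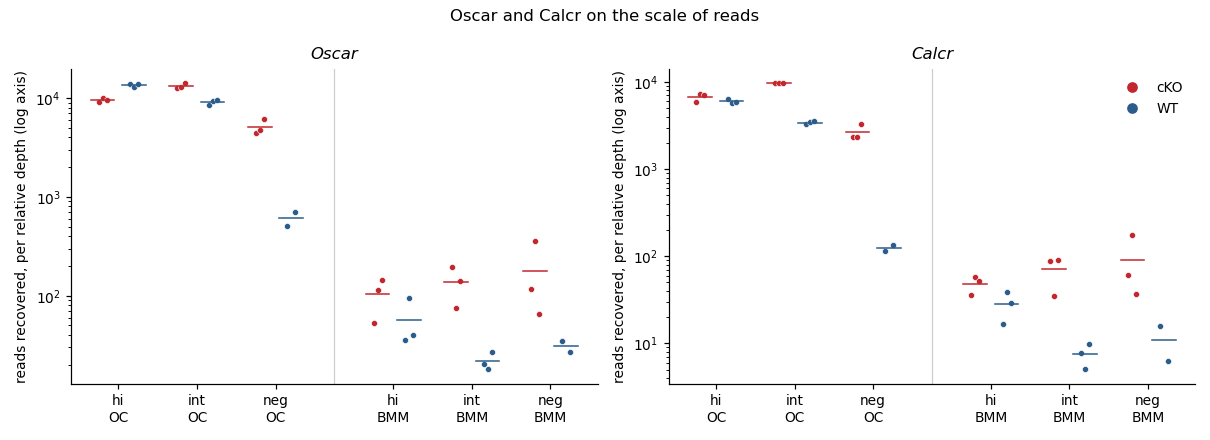
Normalised reads of Oscar and Calcr in each library (log axis), OC left of BMM and cKO left of WT in each fraction. Both genes drop to their lowest OC level in WT Ly6Cneg, at 505 and 706 reads for Oscar and 115 and 133 for Calcr.

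Over the 12 group means the Pearson correlation of Oscar with Calcr was 0.99, and of Tnfrsf11a 0.93 with Oscar and 0.92 with Calcr; these describe 12 means that share stage and depth. The ratio of Oscar to Calcr reads still differed between genotypes in OC. It was 1.34 to 1.55 in cKO and 2.2 to 2.34 in WT for Ly6Chi, 1.29 to 1.46 in cKO and 2.58 to 2.71 in WT for Ly6Cint, and 1.85 to 2.03 in cKO and 4.39 to 5.3 in WT for Ly6Cneg. In each fraction the cKO OC libraries were below the WT OC libraries, with no test made. In BMM, where both genes had few reads, the ranges overlapped in Ly6Chi (1.48 to 2.73 in cKO and 1.39 to 2.48 in WT) and were apart in Ly6Cint (1.57 to 2.22 in cKO and 2.6 to 3.57 in WT) and Ly6Cneg (1.77 to 2.01 in cKO and 2.22 to 4.37 in WT).

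The test of the rise itself between genotypes gave few calls for Oscar and Calcr. Over all 7 genes, the change at the OC stage differed between cKO and WT for 1 of 7 in Ly6Chi (23.8% of all genes tested), 3 of 7 in Ly6Cint (26%) and 4 of 7 in Ly6Cneg (17.3%). In Ly6Cneg the rise was larger in cKO for Oscar by 1.50 ± 0.45 (adjusted p = 0.0231) and for Calcr by 1.98 ± 0.38 (adjusted p = 0.000554). On the recovered reads these interactions were 1.02 (adjusted p = 0.317) and 1.65 (adjusted p = 0.117), not called. Oscar also lost its call, at 1.16 to 1.59, without cKO OC replicate 3, cKO BMM replicate 1 or 3, WT OC replicate 1 or either WT BMM library. In Ly6Cint the interaction of Oscar was -0.87 (adjusted p = 0.124) and -2.12 on reads (adjusted p = 0.0102), with WT BMM at 18 to 26.7 reads.

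Trem2, a lipid- and lipoprotein-sensing receptor that pairs with DAP12, is on chromosome 17 (ENSMUSG00000023992, 48346401 to 48354147, plus strand). Ly6Chi libraries had 13.30, 13 and 12.99 in cKO OC, against 14.48, 14.93 and 14.97 in cKO BMM. WT Ly6Chi libraries had 13.43, 13.59 and 13.49 in OC, against 15.19, 15.56 and 15.50 in BMM. All OC libraries of this fraction were below all its BMM libraries, with a fall of 1.70 ± 0.11 in cKO (-1.70, adjusted p = 1.81e-14) and 1.91 ± 0.11 in WT (-1.91, adjusted p = 6.99e-16). In Ly6Cint there were 12.22, 12.43 and 12.55 in cKO OC, against 14.39, 14.37 and 14.36 in cKO BMM. WT Ly6Cint had 13.68, 13.60 and 13.72 in OC, against 14.22, 14.55 and 14.34 in BMM. The BMM libraries of the genotypes overlapped and the OC libraries did not, and the gene fell further in cKO (-1.97 ± 0.11, adjusted p = 2.58e-16) than in WT (-0.70 ± 0.11, adjusted p = 4.24e-06; interaction -1.27 ± 0.16, adjusted p = 9.58e-08). Ly6Cneg had 14.57, 14.63 and 14.42 in cKO OC, against 14.71, 14.56 and 14.37 in cKO BMM. WT Ly6Cneg had 14.34 and 14.36 in OC, against 13.55 and 13.68 in BMM. In this fraction Trem2 rose in WT (0.73 ± 0.14, adjusted p = 0.000147), and the cKO groups differed by -0.00 (adjusted p = 0.995), or by 0.33, called, once all values were shifted by the median of all genes. The falls of Trem2 came with those of the neutrophil and macrophage markers given above. Where Trem2 did not fall, in Ly6Cneg, the neutrophil marker medians were -0.78 in cKO and -1.8 in WT. Macrophage marker medians there were 0.53 in cKO and 0.36 in WT. The part of these markers in the changes of Trem2 was not tested.

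Between genotypes, Trem2 was lower in cKO Ly6Cint OC (-1.26 ± 0.11, adjusted p = 1.58e-10) and in cKO Ly6Chi BMM (-0.62 ± 0.11, adjusted p = 3.35e-05), and higher in cKO Ly6Cneg BMM (0.92 ± 0.13, adjusted p = 1.15e-06). The lower level in cKO Ly6Chi OC (-0.41 ± 0.11, adjusted p = 0.0178) lost its call without cKO replicate 2 (-0.36), without cKO replicate 3 (-0.35), without WT replicate 2 (-0.36) and on the recovered reads (-0.40, adjusted p = 0.145). Ly6Cint BMM and Ly6Cneg OC differed by 0.01 (adjusted p = 1.0) and 0.19 (adjusted p = 0.422). In OC of both genotypes Ly6Cneg was the highest fraction for Trem2, by 1.44 over Ly6Chi and 2.14 over Ly6Cint in cKO and by 0.85 and 0.69 in WT, all called. In WT BMM it was the lowest, by -1.80 and -0.75, also called.

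Tyrobp encodes DAP12, the ITAM adaptor of TREM2 (chromosome 7, ENSMUSG00000030579, 30413760 to 30417585, plus strand), and was the steadiest of the 7 genes, with a 2.4-fold range over all groups. Neutrophil markers and most macrophage markers fell in the Ly6Chi and Ly6Cint comparisons that follow, as given above. Where Tyrobp did not fall, in Ly6Cneg, the neutrophil marker medians were -0.78 in cKO and -1.8 in WT. Macrophage marker medians there were 0.53 in cKO and 0.36 in WT. The part of these markers in the changes of Tyrobp was not tested. Tyrobp OC libraries lay between 14.13 and 14.82 and its BMM libraries between 13.77 and 15.18. It fell in Ly6Chi by 0.42 ± 0.13 in cKO (-0.42, adjusted p = 0.00993) and 0.56 ± 0.13 in WT (-0.56, adjusted p = 0.00106). In Ly6Cint it fell by 0.42 ± 0.13 in cKO (-0.42, adjusted p = 0.00879) and 0.47 ± 0.13 in WT (-0.47, adjusted p = 0.00563). In Ly6Cneg it rose in cKO (0.37 ± 0.13, adjusted p = 0.0231), and WT differed by 0.36 ± 0.16 (adjusted p = 0.186). The cKO calls were lost when single libraries were left out. The Ly6Chi fall was -0.34 (adjusted p = 0.0721) without cKO BMM replicate 3, the Ly6Cint fall -0.35 (adjusted p = 0.051) without cKO OC replicate 1, and the Ly6Cneg rise 0.16 (adjusted p = 0.226) without cKO BMM replicate 3 and 0.32 (adjusted p = 0.0873) without cKO OC replicate 2. Against a shift by the median of all genes the cKO falls were -0.19 in Ly6Chi and -0.07 in Ly6Cint, and neither was called. Between genotypes Tyrobp was higher in cKO Ly6Cneg, by 0.51 ± 0.15 in OC (adjusted p = 0.0115) and 0.50 ± 0.15 in BMM (adjusted p = 0.0134), and the OC call was lost without either WT library (0.52, adjusted p = 0.0716, and 0.51, adjusted p = 0.0872) and under quantile normalization (0.31). The BMM call was lost without either WT library or cKO replicate 1 or 2 (0.36 to 0.51) and after the median shift (0.28).

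Fcer1g encodes the FcRγ chain, the ITAM adaptor of OSCAR (chromosome 1, ENSMUSG00000058715, 171229572 to 171234365, minus strand). Ly6Chi libraries had 13.11, 13.05 and 13.03 in cKO OC, against 14.56, 14.68 and 14.81 in cKO BMM. WT Ly6Chi libraries had 13.31, 13.32 and 13.28 in OC, against 14.41, 14.69 and 14.70 in BMM. It fell in this fraction by 1.61 ± 0.09 in cKO (-1.61, adjusted p = 2.43e-17) and 1.30 ± 0.09 in WT (-1.30, adjusted p = 1.19e-14). In Ly6Cint it fell by 1.50 ± 0.09 in cKO (-1.50, adjusted p = 1.54e-16) and 1.45 ± 0.09 in WT (-1.45, adjusted p = 5.06e-16). In Ly6Cneg the cKO libraries had 13.86, 13.88 and 13.73 in OC, against 14.05, 13.99 and 13.60 in BMM, and they overlapped (-0.05, adjusted p = 0.656; 0.28, called, after a shift by the median of all genes). WT Ly6Cneg had 13.51 and 13.47 in OC, against 13.29 and 13.28 in BMM (0.20, adjusted p = 0.349). The Ly6Chi and Ly6Cint falls of Fcer1g too came with those of the neutrophil and macrophage markers. Where Fcer1g was not called, in Ly6Cneg, the neutrophil and macrophage marker medians were -0.78 and 0.53 in cKO and -1.8 and 0.36 in WT. The part of these markers in the changes of Fcer1g was not tested. Oscar and its adaptor moved in opposite directions in Ly6Chi and Ly6Cint, Oscar higher and Fcer1g lower in OC.

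Fcer1g was higher in cKO Ly6Cneg BMM than in WT (0.60 ± 0.10, adjusted p = 4.31e-05). It was lower in cKO Ly6Cint in both stages, by -0.36 ± 0.09 in OC (adjusted p = 0.00544) and -0.31 ± 0.09 in BMM (adjusted p = 0.00805), and higher in cKO Ly6Cneg OC (0.34 ± 0.10, adjusted p = 0.0185). The Ly6Cint calls were lost without cKO OC replicate 1 (-0.28) or WT OC replicate 3 (-0.29) in OC and without WT BMM replicate 2 (-0.25, adjusted p = 0.0628) in BMM, and the Ly6Cneg OC call without cKO replicate 1 or 2 or either WT library (0.31 to 0.36) and under quantile normalization (0.14). FcRγ also serves the IgE receptor of mast cells and basophils. Mast cell, basophil and eosinophil markers summed to 563 to 652 reads in cKO Ly6Cneg BMM and 5013 to 6315 in WT. They were thus lower in cKO where Fcer1g was higher, and their part was not tested. The ratio of Tyrobp to Fcer1g reads was higher in OC than in BMM in each group of libraries. It was 2.61 to 2.84 in OC and 1.11 to 1.29 in BMM for cKO Ly6Chi, 2.78 to 2.9 in OC and 1.32 to 1.45 in BMM for cKO Ly6Cint, and 1.67 to 1.83 in OC and 1.19 to 1.48 in BMM for cKO Ly6Cneg. In WT it was 2.17 to 2.39 in OC and 1.34 to 1.4 in BMM for Ly6Chi, 1.93 to 2.03 in OC and 0.984 to 1.06 in BMM for Ly6Cint, and 1.55 to 1.57 in OC and 1.39 to 1.42 in BMM for Ly6Cneg.

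**Figure D5:**
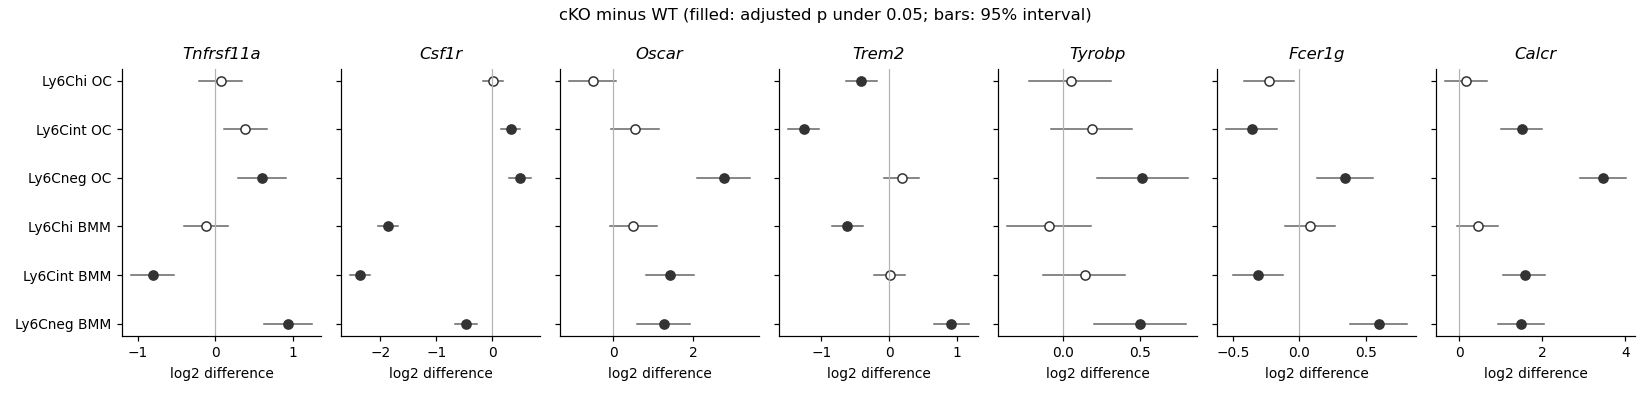
Difference between cKO and WT (log2 scale, horizontal axis with its own range for each gene) in each fraction, OC rows above BMM rows, with 95% intervals; filled points have an adjusted p under 0.05. Csf1r has the lowest differences, -1.87 and -2.37 in Ly6Chi and Ly6Cint BMM, and Calcr and Oscar the highest, 3.46 and 2.76 in Ly6Cneg OC.

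Counted over all 7 genes, 25 of 42 tests between cKO and WT were called, 16 higher and 9 lower in cKO. In OC, 1 of 7 was called in Ly6Chi (7.86% of all genes tested), 4 of 7 in Ly6Cint (14.1%) and 6 of 7 in Ly6Cneg (17.1%). In BMM, 2 of 7 were called in Ly6Chi (29.7% of all genes), 5 of 7 in Ly6Cint (39.7%) and 7 of 7 in Ly6Cneg (23.1%). In Ly6Cneg the called members were higher in cKO in both stages, apart from Csf1r in BMM.

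Between fractions of the same genotype and stage, 41 of 84 tests were called, 11 higher and 30 lower in the fraction named for less Ly6C. Ly6Cint against Ly6Chi gave 2 of 7 calls in cKO OC (5.27% of all genes tested), 2 of 7 in cKO BMM (6.83%) and 3 of 7 in WT BMM (15.6%). In WT OC that comparison gave 0 of 7 with limma (2.9% of all genes), with 2 of 7 at an unadjusted p under 0.05 and 2 of 7, Oscar and Calcr, on the recovered reads. Ly6Cneg against Ly6Chi gave 5 of 7 in cKO OC (23.5%), 2 of 7 in cKO BMM (27%), 4 of 7 in WT OC (19%) and 5 of 7 in WT BMM (20.6%). Ly6Cneg against Ly6Cint gave 5 of 7 in cKO OC (24.7%), 4 of 7 in cKO BMM (27.5%), 4 of 7 in WT OC (13.6%) and 5 of 7 in WT BMM (23%). In WT BMM, Ly6Cneg was below Ly6Chi for Tnfrsf11a (-0.78), Csf1r (-1.22), Trem2 (-1.80), Tyrobp (-1.27) and Fcer1g (-1.32). In cKO BMM the same comparison called Tyrobp (-0.68) and Fcer1g (-0.80).

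Whether the change at the OC stage differed between fractions was tested directly, and 26 of 42 such tests were called. For Ly6Cneg against Ly6Chi there were 5 of 7 in cKO (16.2% of all genes) and 6 of 7 in WT (19.6%), and for Ly6Cneg against Ly6Cint 7 of 7 in cKO (20.5%) and 6 of 7 in WT (17.7%). Ly6Cint against Ly6Chi gave 1 of 7 in cKO (3.38%) and 1 of 7 in WT (7.54%). The smaller rise of Oscar and Calcr in Ly6Cneg than in Ly6Chi was called in both genotypes, at -1.29 and -1.70 in cKO and -3.82 and -3.95 in WT, and so was the difference between these fractions for Trem2 and Fcer1g, at 1.69 and 1.56 in cKO and 2.64 and 1.50 in WT. The cKO value of Oscar was -0.85 to -1.29 and not called when any of 6 libraries was left out (OC Ly6Chi replicate 2 or 3, OC Ly6Cneg replicate 1 or 2, BMM Ly6Chi replicate 1 or BMM Ly6Cneg replicate 2).

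Among the 12 group means of Oscar, all 6 BMM groups (6.54 to 8.07) stood below WT Ly6Cneg OC (9.52 ± 0.27, SD, n = 2), followed by cKO Ly6Cneg OC (12.28 ± 0.24, n = 3). At the top, WT Ly6Cint OC and cKO Ly6Chi OC (13.14 and 13.21) overlapped, as did cKO Ly6Cint OC and WT Ly6Chi OC (13.69 and 13.74). For Calcr the WT Ly6Cneg OC mean (7.92 ± 0.09) overlapped with the highest BMM group, cKO Ly6Cneg (7.50 ± 0.68), and cKO Ly6Cint OC was highest (13.24 ± 0.01), with a gap to cKO Ly6Chi OC (12.71 ± 0.17). Trem2 ran from cKO Ly6Cint OC (12.40 ± 0.17) to WT Ly6Chi BMM (15.41 ± 0.20), each apart from its neighbour, and most of the means between overlapped with the next. Tyrobp was lowest in WT Ly6Cneg BMM (13.78 ± 0.02) and highest in cKO Ly6Cint BMM (15.06 ± 0.08), where it overlapped with WT Ly6Chi BMM (15.05 ± 0.17). Fcer1g was lowest in cKO Ly6Chi OC (13.07 ± 0.04), overlapping with cKO Ly6Cint OC (13.10 ± 0.16), and highest in WT Ly6Cint BMM (14.91 ± 0.12), overlapping with cKO Ly6Chi BMM (14.68 ± 0.12).

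To compare levels between genes, normalised reads were divided by exon length. Tyrobp was the most abundant member in every group, at 21100 to 50600 normalised reads per kilobase in group means. Csf1r was next in cKO Ly6Chi OC (12100), WT Ly6Chi OC (12000) and cKO Ly6Cint OC (16300). In all 6 BMM groups Fcer1g was next (11500 to 34800, against 4650 to 25400 for Csf1r), as it was in WT Ly6Cint OC (12900) and WT Ly6Cneg OC (13200), and in cKO Ly6Cneg OC both stood at 16600. In OC, Tnfrsf11a had 860 to 1910 reads per kilobase, Oscar 328 to 7380, Trem2 1110 to 4770 and Calcr 31.7 to 2480. In BMM, Tnfrsf11a had 279 to 658, Oscar 11.7 to 97.2, Trem2 2550 to 8800 and Calcr 1.93 to 23.4. By this measure Trem2 was the more abundant of the costimulatory receptors in every BMM group and Oscar in the Ly6Chi and Ly6Cint OC groups. Undivided reads were higher for Trem2 in WT Ly6Cint OC (12987 against 9122 for Oscar). They were close in cKO Ly6Chi OC (8873 for Trem2 and 9568 for Oscar), so the order in OC depends on the length used.

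Ligands and direct partners of the receptors were read in the same libraries, from lists drawn up with earlier results of these data known. Tnfsf11 (RANKL itself, supplied as protein) was at the floor of 3.90 in every library of 6 groups and no group mean exceeded 6.16, and Tnfrsf11b (the decoy receptor osteoprotegerin) reached at most 7.94, in cKO Ly6Cneg OC, the group with the 14624 to 20682 stromal reads given above. Of 20 genes of RANK ligand, decoy and adaptors, 18 were higher and 1 lower in OC than in BMM in cKO Ly6Chi, 18 and 1 in cKO Ly6Cint and 19 and 1 in cKO Ly6Cneg. In WT the counts were 11 and 4, 7 and 4, and 8 and 1 in the same order. The list's median differences were 0.99, 0.97 and 0.61 in cKO and 0.33, 0.03 and 0.25 in WT, beside -0.27, -0.34, -0.36, -0.28, -0.06 and -0.03 over all genes tested. Of all genes, 15.5%, 16.4% and 14.5% were higher and 26.3%, 32.3% and 28% lower in OC in cKO Ly6Chi, Ly6Cint and Ly6Cneg, and 13.7%, 13.1% and 6.55% higher and 20.4%, 15.4% and 5.69% lower in WT. These shares and medians are the background of the counts in the lists that follow. Traf1, a TRAF adaptor induced by NF-κB, rose by 4.63 ± 0.11 in cKO Ly6Chi and 4.29 ± 0.11 in WT Ly6Chi, and Traf6, the adaptor that carries the RANK signal, by 1.20 and 0.87. In cKO BMM this list stood lower than in WT. In Ly6Chi, Ly6Cint and Ly6Cneg, 14, 15 and 11 of its 20 genes were lower and 1, 1 and 3 higher. Its medians were -0.39, -0.56 and -0.37, beside 0.00, 0.28 and 0.27 over all genes. In the same comparisons, 15.3%, 14.7% and 9.42% of all genes tested were lower in cKO. The shares higher in cKO were 14.4%, 25% and 13.6%.

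Of 22 genes of M-CSF ligands and proximal signalling, Csf1r included, 10 were higher and 3 lower in OC than in BMM in cKO Ly6Chi, against 5 and 15 in WT Ly6Chi. In Ly6Cint there were 7 and 7 in cKO and 4 and 16 in WT, and in Ly6Cneg 16 and 0 in cKO and 4 and 5 in WT. The list's medians were 0.15, 0.03 and 0.52 in cKO, above the medians of all genes (-0.27, -0.34 and -0.36), and -0.42, -0.71 and -0.02 in WT, beside -0.28, -0.06 and -0.03. Src, a kinase needed for bone resorption, rose by 6.04 ± 0.26 in cKO Ly6Chi and 5.46 ± 0.26 in WT Ly6Chi. Il34, the other ligand of the M-CSF receptor, rose by 2.82 ± 0.29 and 3.20 ± 0.29 in the same pairs. Its means there were low, at 1.82 and 0.444 normalised reads in BMM and 86.5 and 70.4 in OC. The Il34 difference in WT Ly6Cneg was 0.51 ± 0.35 and not called. Csf1, encoding M-CSF, was higher in cKO than in WT in OC (1.75, 0.50 and 2.55 in Ly6Chi, Ly6Cint and Ly6Cneg) and in Ly6Chi and Ly6Cneg BMM (1.19 and 1.04), and lower in cKO Ly6Cint BMM (-0.89), all called. The stromal marker sum moved with it in Ly6Cneg OC, and its part was not tested.

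Of 23 receptors listed as associated with DAP12 or FcRγ, Oscar and Trem2 among them, most fell in the Ly6Chi and Ly6Cint fractions, as Fcer1g did. In Ly6Chi, 5 were higher and 18 lower in OC in cKO and 4 and 19 in WT, with medians of -1.63 and -1.57, and in Ly6Cint 4 and 18 in cKO and 3 and 19 in WT, with medians of -1.78 and -1.33. In Ly6Cneg 11 were higher and 7 lower in cKO and 11 and 6 in WT (medians 0.07 and 0.39). The medians of all genes were -0.27 and -0.28 in Ly6Chi, -0.34 and -0.06 in Ly6Cint and -0.36 and -0.03 in Ly6Cneg of cKO and WT. The neutrophil and macrophage markers fell in the same Ly6Chi and Ly6Cint comparisons, with values given above. Medians in Ly6Cneg of cKO and WT were -0.78 and -1.8 for neutrophil markers and 0.53 and 0.36 for macrophage markers. The part of these markers was not tested. Siglec15, a sialic acid receptor that pairs with DAP12, rose with Oscar, by 5.20 ± 0.22 in cKO Ly6Chi and 5.26 ± 0.22 in WT Ly6Chi and by 4.10 ± 0.22 in cKO Ly6Cneg and 1.88 ± 0.27 in WT Ly6Cneg. It was higher in cKO than in WT in Ly6Cneg OC by 3.18 ± 0.24. Lower in OC were Trem3 (-4.53 ± 0.16 in cKO Ly6Chi), Trem1 (-3.70 ± 0.11 in cKO Ly6Chi) and the high-affinity IgG receptor Fcgr1 (-6.26 ± 0.12 in WT Ly6Cint). A list of 20 genes held ITAM adaptors, kinases and downstream signalling genes, Tyrobp and Fcer1g included. Of these 20, 6 were higher and 9 lower in cKO Ly6Chi and 4 and 10 in WT Ly6Chi. The list's medians there, -0.30 and -0.38, were near those of all genes (-0.27 and -0.28). Syk, the kinase recruited by both adaptors, rose in cKO Ly6Chi (1.63 ± 0.11), and in WT Ly6Chi it differed by -0.11 (adjusted p = 0.475). Hcst (DAP10) fell in cKO Ly6Chi by 1.88 ± 0.16 (-1.88) and in Ly6Cint of cKO and WT (-2.22 and -0.94). Its differences in WT Ly6Chi (-0.38) and in Ly6Cneg of cKO and WT (-0.32 and 0.04) were not called. A list of 14 genes held inhibitory receptors, which oppose the ITAM signal, and the phosphatase gene Ptpn11. Of these 14, 4 were higher and 8 lower in cKO Ly6Chi and 3 and 9 in WT Ly6Chi. In Ly6Cneg there were 12 and 1 in cKO and 6 and 3 in WT. Their medians were -0.74 and -0.54 in Ly6Chi of cKO and WT, beside -0.27 and -0.28 over all genes, and 0.83 and 0.35 in Ly6Cneg, beside -0.36 and -0.03. Siglece fell by 3.20 ± 0.14 in cKO Ly6Chi (-3.20).

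A list of 9 genes held the calcitonin receptor family and its ligands, Calcr included. Of these 9, 2 were higher in OC in each of the 6 pairs and 1 to 3 lower. Over all genes, 12.2% to 48.7% were called. The list's medians were -0.46 to 0.07, beside -0.36 to -0.03 over all genes. Ramp1, a chaperone that changes the ligand preference of the calcitonin receptor, fell as Calcr rose, by -2.83 ± 0.15, -3.14 ± 0.15 and -0.96 ± 0.15 in cKO Ly6Chi, Ly6Cint and Ly6Cneg and by -3.27 ± 0.15, -2.25 ± 0.15 and -2.14 ± 0.19 in WT. Ramp2 had group means of 4.67 to 6.96. Ramp3 had 4.19 to 7.09 and was lower in OC than in BMM in WT Ly6Cint (-1.73 ± 0.37, adjusted p = 0.000245) and lower in cKO than in WT in Ly6Cint BMM (-2.25 ± 0.37). Calcrl, the receptor of the related peptides CGRP and adrenomedullin, rose by 0.97 ± 0.10 in cKO Ly6Cneg and 1.82 ± 0.13 in WT Ly6Cneg.

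The genes most like each member were taken from 14791 genes by Pearson correlation over the 12 group means. Oscar was closest to Slc45a3 (0.998), Nyap2 and Acp5 (0.997), and Slc9b2 and Serpind1 (0.996). Calcr was closest to Epn2 and Kank1 (0.995), and Mt3, Apbb1 and Serpind1 (0.994). Acp5 encodes the tartrate-resistant phosphatase that stains osteoclasts, and Slc9b2 a sodium-proton exchanger. Tnfrsf11a was closest to Prkch, Rilpl1 and Sh3pxd2a (0.979), Csf1r to Atp13a2 (0.97), Trem2 to Clec4d (0.959), Tyrobp to Ppp3ca (0.944) and Fcer1g to Ebi3 (0.977). Clec4d encodes a lectin receptor that itself uses FcRγ. Csf1r followed none of the other 6 members closely, with correlations of -0.05 to 0.42, and Trem2 with Fcer1g (0.78), Tyrobp with Fcer1g (0.72) and Oscar with Fcer1g (-0.72) stood between.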

How the data were processed

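RNA of sorted, cultured mouse monocytes was sequenced from total RNA, per the labels' protocols. Without saying what each did, the submitters' processing notes list DESeq2, HISAT2, deepTools, bcl2fastq 2.17.1, CASAVA 1.8.4 and build mm10. No source used here gives the counting, its strand setting or the transform. The authors deposited 1 table of normalized values on a log2 scale, with 34 of the 36 labelled samples. Its distinct values were numbered to recover whole reads (99.884% to 99.951% of genes per library). limma 3.58.1 (R 4.3.3) fitted 12 group means to the deposited values with a trended, robust prior and 22 residual degrees of freedom, over 38873 genes above 4.78 in at least 3 libraries. Adjustment was Benjamini-Hochberg within each of 33 comparisons. Simulated data for cKO against WT in Ly6Cneg OC had 50 genes changed at each of 4 sizes. limma recovered 0%, 20%, 26% and 70% of changes of 0.25, 0.5, 1 and 2 log2 units, and 6.45% of calls were false. Far fewer genes changed there than the 17.1% called in the data, which makes the adjustment stricter. A small difference that was not called may still be real. Intervals are 95%. Members and lists were chosen with earlier results of these data known. Named beside the members are fixed partners, up to 4 called genes per list and comparison, and the 5 most correlated genes per member with a group mean of at least 6.25. Alternatives were other filters (none, 5.29), scalings, priors and weights, and each library left out. Recovered reads (limma-voom) were added after the data were seen. Coordinates are GRCm38 annotation, and promoters RefSeq GRCm38.p6. Protein sequences were not used here.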

Additional observations from a re-analysis of the deposited data

Results flagged for a closer look

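Direct tests found that the change between OC and BMM differed between genotypes or between fractions for the values below (limma, adjusted p under 0.05 over all genes; all on the deposited log2 scale). Between cKO and WT, the difference in this change was 1.89 in Ly6Chi, 2.69 in Ly6Cint and 0.97 in Ly6Cneg for Csf1r. It was 1.21 in Ly6Cint for Tnfrsf11a, -1.27 in Ly6Cint and -0.74 in Ly6Cneg for Trem2, and in Ly6Cneg 1.5 for Oscar and 1.98 for Calcr.

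Within cKO, the change in Ly6Cint minus that in Ly6Chi was 0.79 for Csf1r. The change in Ly6Cneg minus that in Ly6Chi was -1.29 for Oscar, -1.7 for Calcr, 1.69 for Trem2, 1.56 for Fcer1g and 0.79 for Tyrobp. The change in Ly6Cneg minus that in Ly6Cint was -1.14 for Tnfrsf11a, -0.53 for Csf1r, -1.52 for Oscar, -1.98 for Calcr, 1.97 for Trem2, 1.45 for Fcer1g and 0.79 for Tyrobp.

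Within WT, the change in Ly6Cint minus that in Ly6Chi was 1.21 for Trem2. The change in Ly6Cneg minus that in Ly6Chi was 1.17 for Csf1r, -3.82 for Oscar, -3.95 for Calcr, 2.64 for Trem2, 1.5 for Fcer1g and 0.91 for Tyrobp. The change in Ly6Cneg minus that in Ly6Cint was 1.19 for Csf1r, -3.89 for Oscar, -4.02 for Calcr, 1.44 for Trem2, 1.65 for Fcer1g and 0.83 for Tyrobp. Comparisons that share a fraction share its libraries, and the WT Ly6Cneg groups hold 2 libraries each.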

How the results depend on the processing

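Of 231 tests of a member, 137 were called, and 107 of those kept their direction and their call in all 42 alternatives, 34 of which left out 1 library. Values that were called on at least 1 side and turned in sign were Trem2 and Fcer1g between OC and BMM in cKO Ly6Cneg, at 0.33 and 0.28 after a shift by the median of all genes, and Csf1r between cKO and WT in Ly6Cint OC, at -0.02 after quantile normalization. Leaving out 1 library gave 36 to 37 calls between OC and BMM, 23 to 26 between cKO and WT, 39 to 46 between fractions, 7 to 10 for genotype by stage and 25 to 28 for fraction by stage. Of the 231, the fit on only the compared libraries lost 16 calls and gained 16, quantile normalization lost 10 and gained 12, the median shift 8 and 8, recovered reads 6 and 10, library weights 1 and 22, and a plain prior lost 4. A stricter filter gained 3, and testing all genes without a filter changed no call. Trem2 for genotype by stage in Ly6Cneg was -0.48 after the median shift (adjusted p = 0.0586), Csf1r for Ly6Cint minus Ly6Chi by stage in cKO 0.43 under quantile normalization (adjusted p = 0.306). No paired analysis was possible because the sample titles carry serial numbers that pair no libraries across groups. Where reads are few the deposited scale understates change: between OC and BMM in WT Ly6Cneg, Oscar was 2.72 there and 4.27 on recovered reads, and Calcr 1.90 and 3.62. Between cKO and WT in BMM, recovered reads gave 2.65 and 2.05 for Oscar and 3.18 and 2.75 for Calcr in Ly6Cint and Ly6Cneg. Csf1r reads above the highest step numbered are extrapolated.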
